A study of Rattus norvegicus with 12 samples.

Results

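The glutathione peroxidase gene Gpx2 is described here together with 9 other antioxidant enzyme genes, Gpx1, Gpx3, Gpx4, Nqo1, Hmox1, Gclc, Gclm, Sod1 and Sod2, in the sensory ganglia of 2 lines of rats. These 10 genes, of 10411 genes with a signal on the arrays, are read by 11 probe sets, 1 for each gene and 2 for Gclc. Gpx2 was chosen by its measured signal difference between the lines, so its line difference is given as a description with no test. The other 9 genes were taken as the remaining measured glutathione peroxidases of best-known function, the enzymes of glutathione synthesis and of the Nrf2 response, and the superoxide dismutases. The question was whether the line difference of Gpx2 was shared by them. The animals were adult male Sprague Dawley rats of the genetic sub-lines Low Pain (LP) and High Pain (HP). In the ligated rats the L4 and L5 spinal nerves had been tied (spinal nerve ligation, SNL, a model of neuropathic pain) 3 days earlier. Sham rats had surgery that left the nerve undamaged, at a time that the labels do not give. Total RNA of L4/L5 dorsal root ganglia, which hold the cell bodies of sensory neurons, was hybridised to 12 Affymetrix arrays in 4 groups of 3, which were LP SNL, LP sham, HP SNL and HP sham. The labels do not say whether an array holds 1 animal or a pool, nor how the lines were bred, so a p-value here covers the variation among these arrays and nothing wider, and that variation could be technical.

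Cells remove superoxide and peroxides in steps. Superoxide dismutases turn superoxide into hydrogen peroxide, in the cytosol (Sod1) and in mitochondria (Sod2). Glutathione peroxidases then reduce hydrogen peroxide and lipid peroxides with glutathione as the electron donor. Gpx1 is the widespread cytosolic form, Gpx2 is a cytosolic form best known from the lining of the gut, Gpx3 is secreted into plasma, and Gpx4 reduces peroxides of membrane lipids and guards cells against ferroptosis. Glutathione is built in a rate-limiting step by glutamate-cysteine ligase, with the catalytic subunit Gclc and the modifier subunit Gclm. The transcription factor Nrf2, encoded by Nfe2l2 and held down by Keap1, binds antioxidant response elements with a small Maf partner. Gclc, Gclm, the quinone reductase gene Nqo1, the inducible haem oxygenase gene Hmox1 and Gpx2 are among its well-known targets.

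The promoters of 4 of these genes are shown because they allow the question of a shared Nrf2 response to be set beside the sequence. Gpx2 is the gene with the line difference, Gpx1 is the glutathione peroxidase nearest to it in that respect, and Gclm and Sod2 hold the same response element core as Gpx2. Each window runs from 250 bases before to 50 bases after the gene's start on the coding strand and comes from RefSeq on the rat assembly GRCr8. Gpx2 lies at chr6:101229984-101230283 on the minus strand, Gpx1 at chr8:117905212-117905511 on the plus strand, Gclm at chr2:213031885-213032184 on the plus strand and Sod2 at chr1:50050119-50050418 on the minus strand. Capitals mark the core of the antioxidant response element, spelled TGACNNNGC and searched on both strands. In all 3 windows that hold it here it is on the opposite strand, so it appears as its reverse complement.
Gpx2: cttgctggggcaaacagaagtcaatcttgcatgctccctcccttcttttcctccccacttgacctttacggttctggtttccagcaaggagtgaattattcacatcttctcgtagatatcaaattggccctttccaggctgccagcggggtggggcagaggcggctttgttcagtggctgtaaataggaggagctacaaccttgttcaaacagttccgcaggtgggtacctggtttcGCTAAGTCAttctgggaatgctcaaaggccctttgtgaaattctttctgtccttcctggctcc
Gpx1: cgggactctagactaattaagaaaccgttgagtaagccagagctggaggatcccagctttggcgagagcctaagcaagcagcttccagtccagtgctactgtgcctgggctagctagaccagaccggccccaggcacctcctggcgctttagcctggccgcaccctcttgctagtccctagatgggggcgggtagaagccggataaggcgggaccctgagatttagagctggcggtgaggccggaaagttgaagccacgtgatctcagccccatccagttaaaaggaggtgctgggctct
Gclm: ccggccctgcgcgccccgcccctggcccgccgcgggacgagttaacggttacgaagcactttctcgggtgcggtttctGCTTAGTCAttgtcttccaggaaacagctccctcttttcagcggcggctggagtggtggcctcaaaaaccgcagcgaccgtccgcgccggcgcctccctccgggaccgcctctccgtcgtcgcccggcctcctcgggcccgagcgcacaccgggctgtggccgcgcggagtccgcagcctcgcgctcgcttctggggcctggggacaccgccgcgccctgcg
Sod2: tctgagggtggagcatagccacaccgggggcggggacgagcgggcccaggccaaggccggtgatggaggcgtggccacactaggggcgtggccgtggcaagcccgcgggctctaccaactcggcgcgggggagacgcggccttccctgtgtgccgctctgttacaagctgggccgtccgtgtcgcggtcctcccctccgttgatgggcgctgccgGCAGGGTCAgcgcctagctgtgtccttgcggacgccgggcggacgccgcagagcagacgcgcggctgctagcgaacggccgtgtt
Read on its own strand the core is TGACTTAGC in Gpx2, 13 to 5 bases before the start. In Gclm it is TGACTAAGC, 172 to 164 bases before the start, and in Sod2 it is TGACCCTGC, 35 to 27 bases before the start. A window was given for 9 of the 10 genes, all but Hmox1, and these 3 are the genes whose window holds the core. Of all 33469 rat promoter windows of this length, 12.1% hold it. The TATA box letters TATAAA, on either strand and with no overlap with the other core, occur in the windows of Nqo1, Gclc and Sod1, and in 14.2% of all windows. These are matches of letters, and nothing follows from a window without one.

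The deposited signals are linear, and log2 differences are on the scale of log2(signal + 1). The added 1 makes changes of the dimmest genes look smaller than they are, by little at the 25th percentile of all values, 120.6. Replicates of the dimmest 25% of probe sets also spread more, with a median SD of 0.613 against 0.135 for the brightest 25%. The median signal of an array lay between 279 and 314, and log2 signals correlated with r of 0.941 to 0.965 within groups and 0.923 to 0.961 between groups. Every array has a mean of 500.1 after the lowest and highest 2% of values are left out. The genes described were among the better measured ones, with 10 of the 11 probe sets above the median of every array, and the replicate coefficient of variation was 11% in the median over probe sets and groups. Sensory neuron markers had a summed signal of 32212 to 48738 over the 11 of 12 listed genes that were measured, so these defining genes of the labelled tissue were present on every array. In a bulk sample, fewer cells of a type and less RNA per cell cannot be told apart.

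Gpx2 was much lower in LP than in HP ganglia. After SNL its signal was 998, 1186 and 988 in LP and 3337, 3351 and 3576 in HP ganglia. After sham it was 948, 1248 and 998 in LP and 2209, 2429 and 1895 in HP ganglia. The brightest of the 6 LP arrays therefore lay below the dimmest of the 6 HP arrays, and such a gap between the lines was found in 1.18% of all genes. The means were 1057 ± 112 in LP SNL, 1064 ± 161 in LP sham, 3422 ± 134 in HP SNL and 2178 ± 268 in HP sham (SD, n = 3 each). In order of level HP SNL came first, then HP sham, then the LP groups, which overlapped and did not differ beyond their spread. The ratio of the LP to the HP mean was 0.309 after SNL and 0.489 after sham. On the log2 scale LP minus HP was -1.70 ± 0.14 (SE) after SNL, -1.04 ± 0.14 after sham and -1.37 ± 0.10 averaged over surgery. Averaged over surgery, this was the 10th most negative line difference among the 10411 genes and the 26th by absolute size. The choice of Gpx2 rests on these values, and they support nothing beyond themselves.

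**Figure D1:**
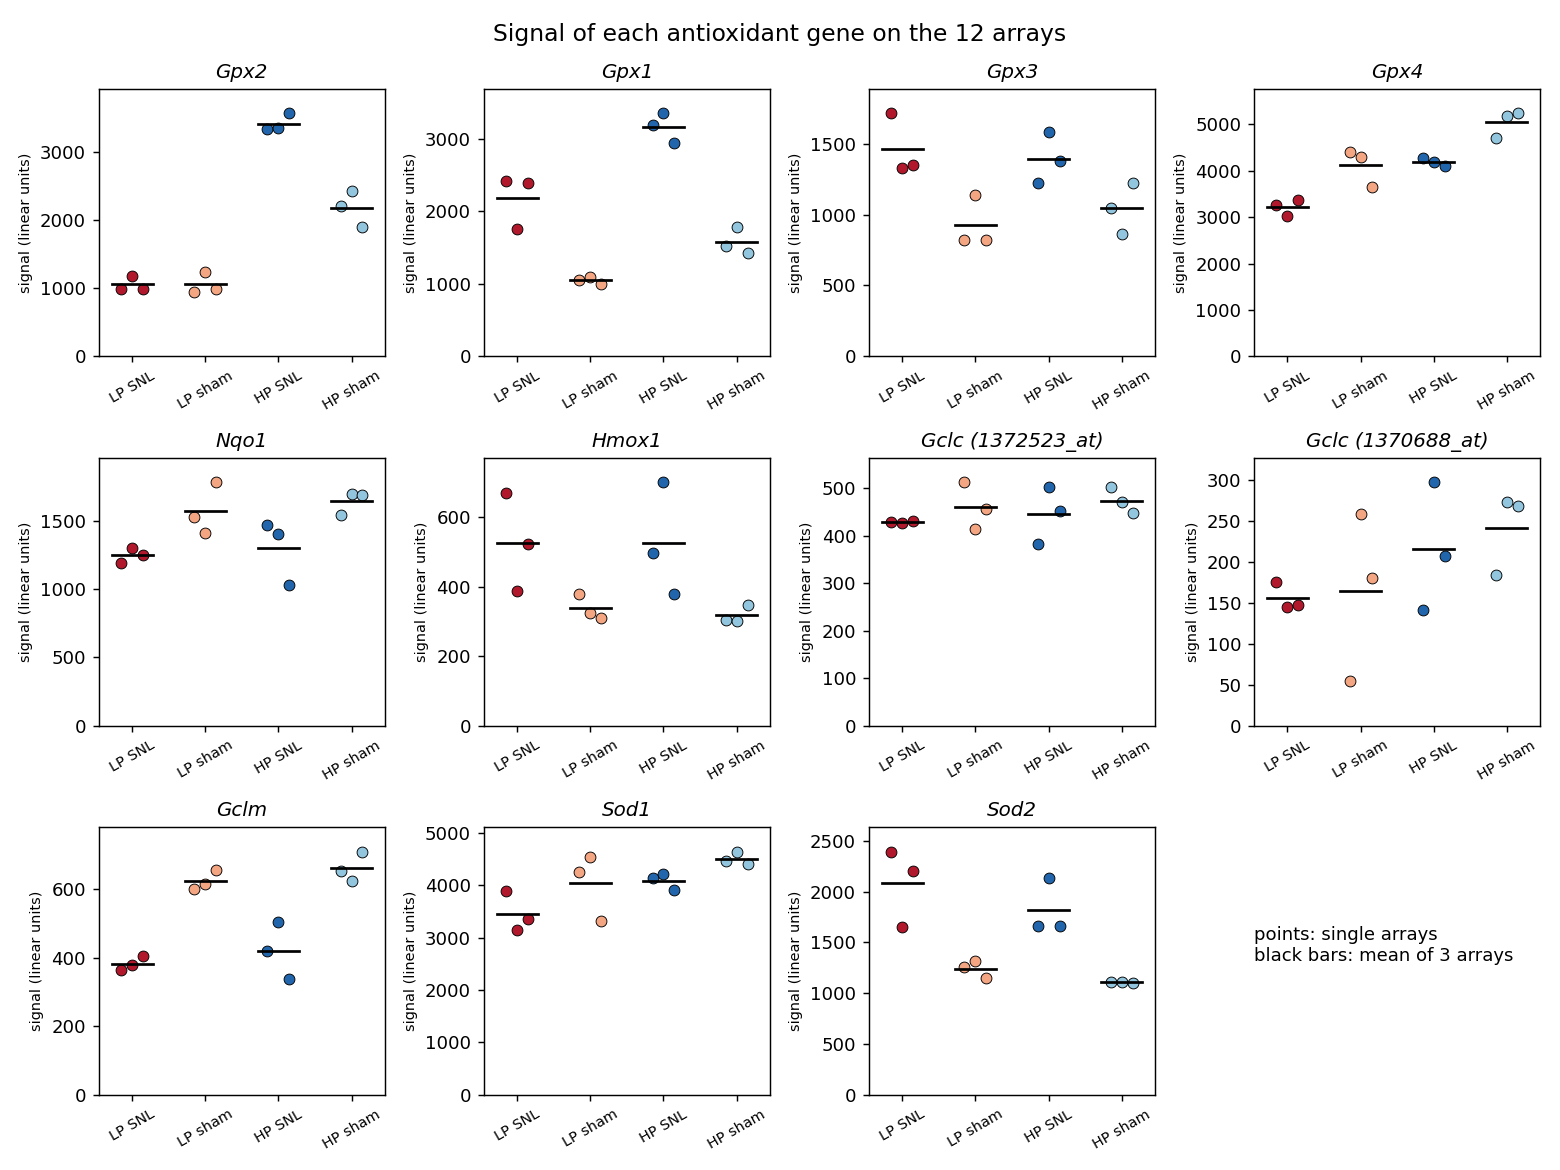
Signal (linear units, axes from 0) of each probe set in the 4 groups, with a point for each array and a bar at the mean of 3 arrays. Gpx2, Gpx1 and Gpx4 have all LP arrays below all HP arrays of the same surgery, as do 2.06% of all genes. Gpx1, Gpx3, Gpx4, Nqo1, Hmox1, Gclm and Sod2 separate SNL from sham in both lines, each in 1 direction, as do 19.3% of all genes.

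Among the other glutathione peroxidases, Gpx1 was lower in LP ganglia, Gpx4 leaned the same way without passing the test, and Gpx3 did not. Gpx1 had signals of 2415, 1756 and 2398 in LP SNL against 3197, 3355 and 2937 in HP SNL ganglia. In sham ganglia it had 1059, 1100.3 and 1000.4 in LP against 1527, 1787 and 1428 in HP. After either surgery every LP array was below every HP array, as groups failed to overlap in 17.4% of all genes after SNL and 15.6% after sham, and the LP mean was 0.692 and 0.666 times the HP mean after SNL and after sham. Averaged over surgery, LP minus HP was -0.56 ± 0.10 (SE; 95% interval -0.79 to -0.34; limma adjusted p = 0.0411). In this contrast 0.634% of all genes passed, and of the 9 genes other than Gpx2 Gpx1 was the one that did. Within each surgery alone it did not pass, with -0.54 ± 0.14 after SNL (adjusted p = 0.224) and -0.58 ± 0.14 after sham (adjusted p = 0.272). There 0.125% and 0.0192% of all genes passed. The averaged call is narrow: it was lost without any 1 of the 12 arrays, where the difference stayed between -0.60 and -0.49 and the adjusted p lay between 0.0577 and 0.0961. It was also lost with the beta-actin 3' to 5' ratio of each array, a sign of RNA integrity, as a covariate (adjusted p = 0.096). The difference itself stayed at -0.56 with that covariate.

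Gpx4 had signals of 3262, 3032 and 3369 in LP SNL and 4272, 4184 and 4093 in HP SNL ganglia. In sham ganglia they were 4403, 4304 and 3659 in LP and 4696, 5184 and 5241 in HP. The lines did not overlap after either surgery, and LP minus HP averaged over surgery was -0.34 ± 0.07 (SE; 95% interval -0.49 to -0.18), which missed the threshold at an adjusted p of 0.0714. It passed without the dimmest 25% of probe sets (adjusted p = 0.0409) and with a trended and robust variance (adjusted p = 0.0139). Gpx3, the secreted enzyme, had 1715, 1325 and 1352 in LP SNL against 1223, 1583 and 1375 in HP SNL ganglia, and 819.5, 1135 and 823 in LP sham against 1044, 865 and 1223 in HP sham ganglia. The lines overlapped after both surgeries, and the averaged difference of -0.05 ± 0.13 (95% interval -0.34 to 0.24; adjusted p = 0.894) does not reach the size seen in Gpx2 in either direction. Gpx2, Gpx1 and Gpx4 were thus the 3 of the 10 genes with every LP array below every HP array after both surgeries, a pattern found in 2.06% of all genes. Gpx2 was chosen for it. Of the more distant family members, Gpx7 and Gpx8, which reside in the endoplasmic reticulum, had averaged line differences of -0.12 ± 0.07 (adjusted p = 0.454) and -0.08 ± 0.10 (adjusted p = 0.783). Gpx6 was dim, with signals of 15.2 to 127 over all arrays, and its difference of 0.77 ± 0.59 (adjusted p = 0.597) had a wide error.

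None of the 4 other Nrf2 target genes described passed the test between the lines. By the brightest probe set of each gene, their differences were small beside that of Gpx2. Nqo1 had signals of 1196, 1301 and 1249 in LP SNL and 1469, 1407 and 1033 in HP SNL ganglia. After sham they were 1528, 1412 and 1785 in LP and 1543, 1697 and 1696 in HP. LP and HP arrays were interspersed, and the averaged difference was -0.06 ± 0.10 (95% interval -0.28 to 0.17; adjusted p = 0.842). Gclm, the modifier subunit of glutamate-cysteine ligase, had 364, 379 and 406 in LP SNL and 418, 505 and 338 in HP SNL ganglia. In sham ganglia it had 601, 616 and 657 in LP and 652, 623 and 709.7 in HP, and LP minus HP was -0.10 ± 0.10 (95% interval -0.32 to 0.12; adjusted p = 0.7). The catalytic subunit Gclc lay between 382 and 512.5 on all 12 arrays by its brighter probe set, with a line difference of -0.05 ± 0.09 (95% interval -0.24 to 0.15; adjusted p = 0.852). Its other probe set was dim, with signals of 54 to 297 and a difference of -0.60 ± 0.35 (95% interval -1.38 to 0.18; adjusted p = 0.478). The interval of the dim probe set contains the value of the brighter one, which bounds the difference more closely.

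Hmox1 had 668, 386 and 522 in LP SNL and 497, 699.7 and 378 in HP SNL ganglia. After sham it had 379, 325 and 308 in LP and 305, 301 and 346 in HP, and LP minus HP was 0.05 ± 0.17 (95% interval -0.33 to 0.43; adjusted p = 0.927). The lines overlapped after both surgeries, with a wide spread after SNL. For Nqo1, Gclm, Hmox1 and the brighter probe set of Gclc, the 95% interval of the line difference lay between -0.33 and 0.43. The difference of -1.37 measured for Gpx2, which was chosen for it, lies outside each of them. The interval of the dim Gclc probe set, -1.38 to 0.18, contains -1.37.

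The superoxide dismutases passed the test in neither direction. Sod1, the cytosolic copper and zinc enzyme, had 3885, 3140.2 and 3356 in LP SNL and 4136, 4211 and 3917 in HP SNL ganglia. After sham it had 4256, 4551 and 3319.7 in LP and 4473, 4646 and 4411 in HP. LP arrays were all below HP arrays after SNL and overlapped them after sham, and the averaged difference was -0.21 ± 0.09 (95% interval -0.41 to -0.004; adjusted p = 0.341). Sod2, the mitochondrial manganese enzyme, had 2395, 1656 and 2201 in LP SNL and 1664, 2133 and 1658 in HP SNL ganglia, which overlapped. After sham it had 1261, 1316 and 1151 in LP and 1114, 1114 and 1099.5 in HP, where every LP array was above every HP array. The averaged difference was 0.18 ± 0.11 (95% interval -0.06 to 0.41; adjusted p = 0.496).

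**Figure D2:**
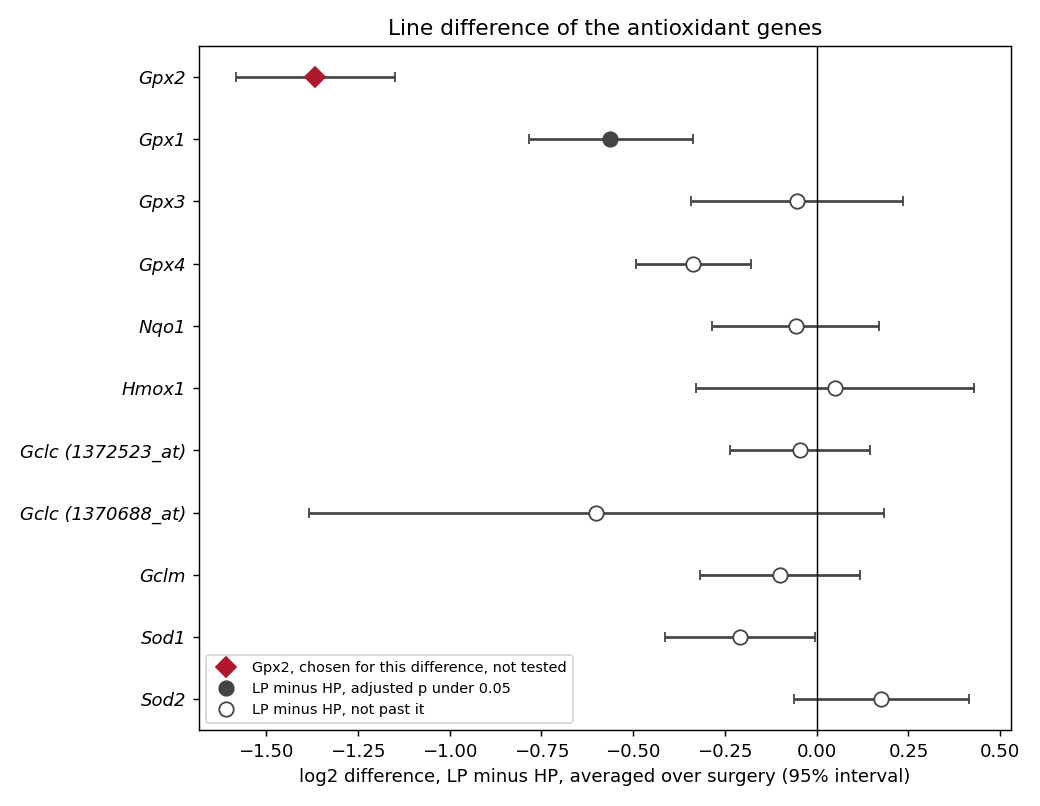
LP minus HP difference averaged over surgery, on the log2(signal + 1) scale with 95% intervals, for each probe set. Gpx2 (red diamond, chosen for this difference and not tested) is at -1.37, Gpx1 (filled) at -0.56 is past the threshold, and the remaining probe sets (open) are not past it.

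By its count of calls, the wider antioxidant system was near the share of all genes in the line contrasts, where few genes passed. Over 10 further lists, from glutathione transferases to NADPH oxidases, 105 of 127 listed genes were measured, and 0 of them passed by limma in the averaged contrast, after SNL or after sham. Of all genes 0.634% passed in the averaged contrast, 0.125% after SNL and 0.0192% after sham, so 0 of 105 does not set these lists apart. At an unadjusted p under 0.05, 16 of the 105 were below it in the averaged contrast, as were 2274 of the 15866 probe sets. The median difference of the 105 genes was -0.04 against 0.02 over all genes, and 59% of them were below 0 against 46% of all genes. Nearest to the threshold was Gstm1, a mu class glutathione transferase, at -0.52 ± 0.10 (adjusted p = 0.0546), which passed in 8 of 23 alternative analyses. Its signals were 454, 591 and 537 in LP SNL against 848, 821 and 823 in HP SNL ganglia, and 747, 913 and 641 in LP sham against 999.5, 939 and 1027 in HP sham ganglia. LP arrays were below HP arrays after both surgeries for this gene too, a pattern found in 2.06% of all genes. The mitochondrial transferase Gstk1 had -0.44 ± 0.10 (adjusted p = 0.0903), the constitutive haem oxygenase gene Hmox2 -0.56 ± 0.13 (adjusted p = 0.0971) and Gstp1, a pi class transferase, -0.31 ± 0.09 (adjusted p = 0.152). The same pattern was seen in Gstk1, Hmox2 and Gstp1, in the peroxiredoxin gene Prdx2 and in the selenoprotein genes Selenof and Selenom. These genes were named for their small p, which favours such a pattern. It was not counted over the 105 genes, so no share of theirs can be set beside 2.06%. Genes with higher LP values included Gsta4, an alpha class transferase that removes lipid aldehydes, at 0.35 ± 0.10 (adjusted p = 0.17), and the glutathione reductase gene Gsr, at 0.40 ± 0.14 (adjusted p = 0.239). Nfe2l2, which encodes Nrf2, had 0.11 ± 0.08 (adjusted p = 0.555), and Keap1, its inhibitor, had -0.25 ± 0.18 (adjusted p = 0.565).

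**Figure D3:**
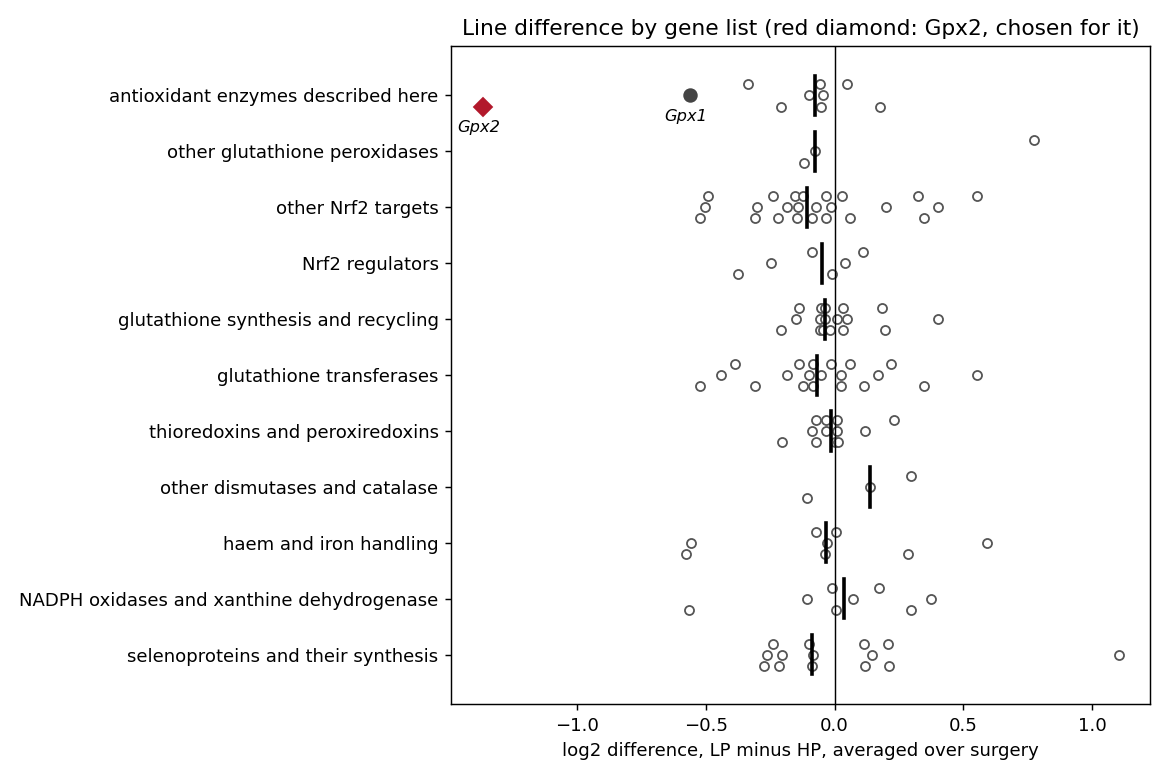
LP minus HP difference averaged over surgery (log2 scale) of each measured gene, by list, with a black bar at each list's median. Open points did not pass the threshold, Gpx2 (red diamond) was chosen for its difference, and the medians of the 10 further lists lie close to 0 with no gene past the threshold. Of all genes 0.634% passed it.

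Markers of other cell types were set beside the difference of Gpx2. The counts of line calls that follow stand beside 0.634% of all genes in the averaged contrast, 0.125% after SNL and 0.0192% after sham. Of 14 epithelial genes listed, because Gpx2 is best known from gut epithelium, 13 were measured, and their summed signal was 2938 to 3075 in LP SNL, 2673 to 2906 in LP sham, 2474 to 2744 in HP SNL and 2699 to 2855 in HP sham ganglia. Krt18, Cldn3, Cldn7 and Fabp2 were below a signal of 120.6, the 25th percentile of all values, on every array, and 0 of the 13 passed in a line contrast. Sensory neuron markers summed to 32212 to 35920 in LP SNL, 44101 to 48738 in LP sham, 37688 to 40224 in HP SNL and 45475 to 48327 in HP sham ganglia. By limma 1 of 11 was lower in LP in the averaged contrast, 1 after SNL and 0 after sham. After SNL 0 of the 11 had a line difference above 0 (median -0.28, against 0.03 over all genes). After sham 4 did (median -0.06, against 0.01 over all genes). Macrophage markers summed to 13315 to 15723 in LP SNL, 6333 to 6809 in LP sham, 14802 to 16628 in HP SNL and 6935 to 8212 in HP sham ganglia, with 0 of 12 passing in a line contrast. Satellite glia markers summed to 16758 to 18601 in LP SNL against 19404 to 19760 in HP SNL ganglia, Schwann cell and myelin markers to 33683 to 34663 in LP SNL against 36943 to 38854 in HP SNL, and red blood cell markers to 9754 to 13537 in LP SNL against 13784 to 15415 in HP SNL. By limma in the averaged contrast 1 of 8 satellite glia markers was higher in LP, against the direction of the sums, 1 of 9 Schwann cell and myelin markers was lower, and 0 of 4 red blood cell markers passed. After SNL the LP sums were therefore below the HP sums without overlap for the neuronal, satellite glia, Schwann cell and red cell lists and above them for the epithelial list. After sham they were below for the macrophage list and for skeletal muscle, at 5693 to 6174 in LP against 6511 to 7721 in HP ganglia. Their part in the line difference of Gpx2 was not tested.

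On chromosome 6 none of the measured neighbours of Gpx2 passed the averaged line test, which 0.634% of all genes passed. Up to 5 measured protein-coding genes on each side were read, Hspa2, Ppp1r36, Plekhg3, Sptb and Churc1 before it and Rab15, Fntb, Max, Fut8 and Gphn after it in RefSeq order on GRCr8. Their averaged line differences ranged from -0.66 ± 0.24 for the spectrin gene Sptb to 0.33 ± 0.16 for Plekhg3, with adjusted p of 0.248 to 0.887. Sptb was dim, with group means of 46.9 in LP SNL, 215 in LP sham, 110 in HP SNL and 226 in HP sham ganglia. The adjacent genes, Churc1 and the small GTPase gene Rab15, had -0.18 ± 0.16 and -0.19 ± 0.17. Rab15 had group means of 1655 in LP SNL, 374 in LP sham, 1515 in HP SNL and 511 in HP sham ganglia, so the neighbour of Gpx2 followed the surgery in its means and not the line.

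**Figure D4:**
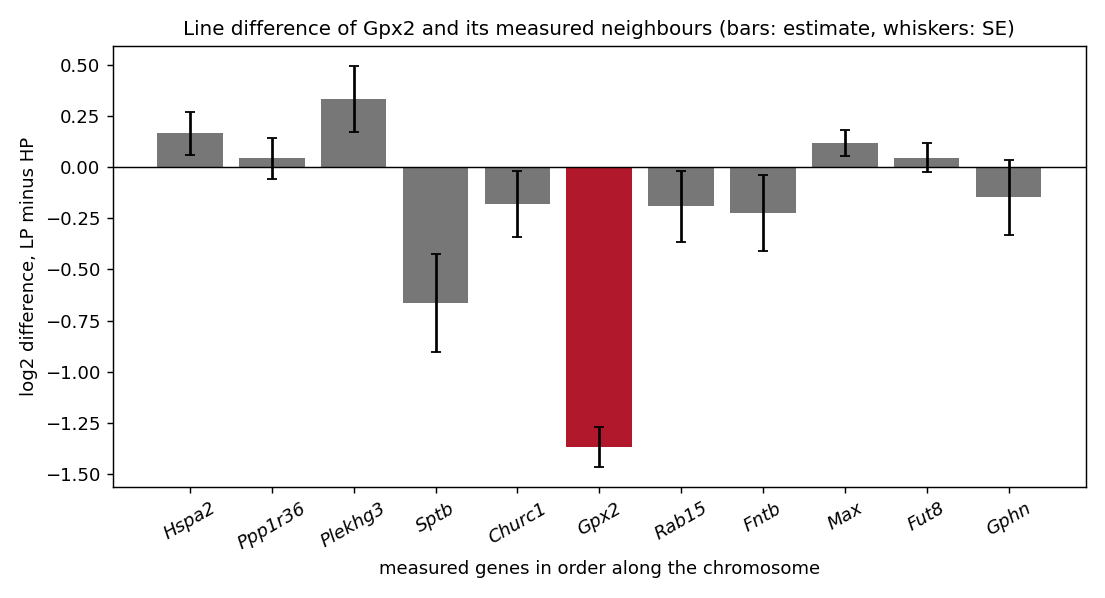
LP minus HP difference averaged over surgery (log2 scale; whiskers are 1 SE) of Gpx2, in red, and of the measured genes beside it in chromosome order, with distances not to scale. Gpx2 is at -1.37, chosen for it, and the other bars lie between -0.66 and 0.33, none past the threshold.

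The genes most like Gpx2 across the 12 arrays were read as a description. Gpx2 was chosen for its line difference, so genes that differ between the lines rank high by construction. Among 7807 genes outside the dimmest 25% by mean signal, the highest Pearson correlations of log2 signals with Gpx2 were those of Myo18a, an unconventional myosin gene (r = 0.923), Ina, which encodes the neuronal filament protein alpha-internexin (r = 0.913), Coro1a, the actin-binding coronin of leukocytes (r = 0.904), the MHC class I gene RT1-T24-4 (r = 0.896) and Rbm42, which encodes an RNA-binding protein (r = 0.892). Myo18a had group means of 724 in LP SNL, 768 in LP sham, 1200.1 in HP SNL and 1065 in HP sham ganglia. RT1-T24-4 had 357 in LP SNL, 237 in LP sham, 1038 in HP SNL and 840 in HP sham ganglia. The most negative correlations were those of Pik3r3 (r = -0.917), Glcci1 (r = -0.915), Rlim (r = -0.902), Esyt2 (r = -0.899) and Arpc4 (r = -0.892). Within groups the correlations of these 10 genes with Gpx2 lay between -0.468 and 0.282, so the likeness was one of group means. Among the other antioxidant genes r with Gpx2 was 0.621 for Gpx1, 0.514 for Gpx4, 0.459 for Sod1 and 0.209 for Gpx3, and between -0.098 and 0.072 for Hmox1, Gclc, Sod2, Nqo1 and Gclm. The points share 12 arrays in 4 groups, and these values are a description.

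Ligation moved the glutathione peroxidases in different ways. Gpx1 rose in both lines. Its signals, given above, put every SNL array above every sham array in LP and in HP, and SNL over sham was 2.08 in LP and 2.00 in HP by the means. The log2 difference was 1.04 ± 0.14 in LP (limma adjusted p = 0.00138) and 1.01 ± 0.14 in HP (adjusted p = 0.00212), past the threshold in all 24 alternatives in each line. By this test 13.3% of all genes passed in LP and 11.9% in HP, and of the 10 genes described 3 rose and 2 fell in LP, while 3 rose and 1 fell in HP. Of all genes 7.03% rose and 6.25% fell in LP, and 6.25% rose and 5.68% fell in HP. Gpx2 behaved otherwise. In LP its difference did not pass, at -0.01 ± 0.14 (95% interval -0.31 to 0.30; adjusted p = 0.992), and in HP it rose, by 0.66 ± 0.14 (95% interval 0.35 to 0.97; adjusted p = 0.014), where SNL over sham was 1.57 by the means. The HP call was lost with the actin covariate (0.54, adjusted p = 0.096), without HP sham replicate 3 (0.56, adjusted p = 0.0564) and without HP SNL replicate 3 (0.63, adjusted p = 0.0516). In HP the actin ratio was 1.24, 1.34 and 1.12 on the SNL arrays and 1.85, 1.48 and 1.77 on the sham arrays, without overlap, and its part in the rise was not tested beyond that covariate. The HP arrays of this test are also those that gave Gpx2 its line difference.

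**Figure D5:**
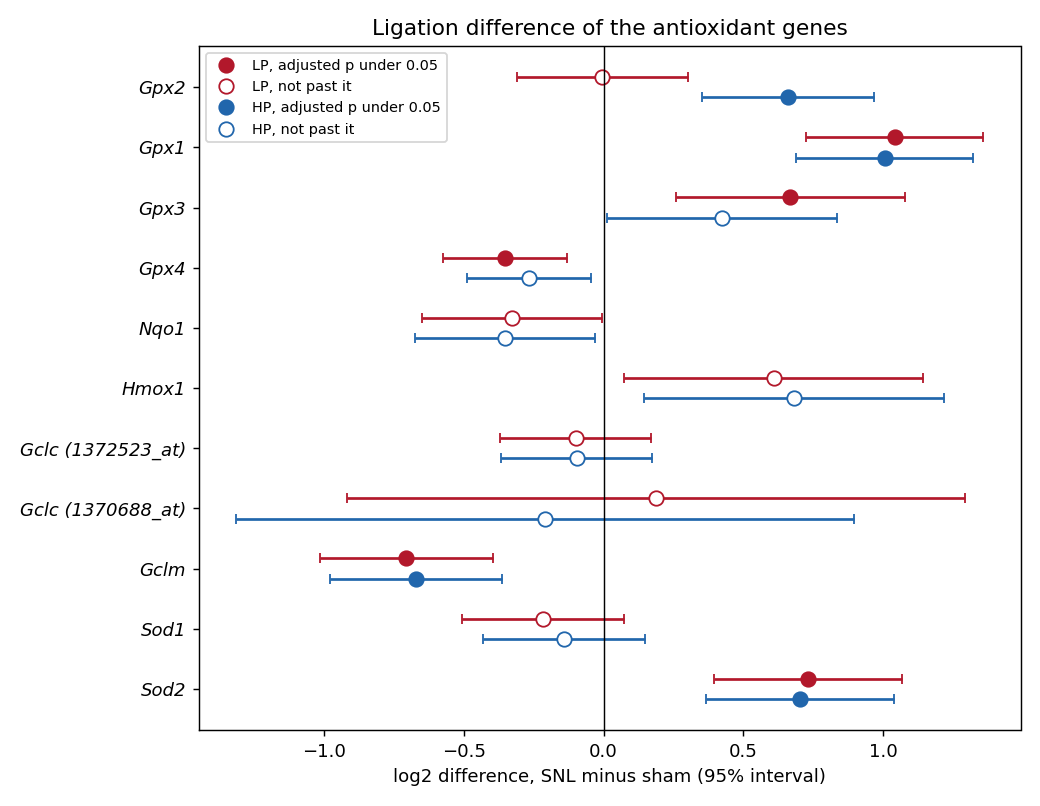
SNL minus sham difference on the log2(signal + 1) scale with 95% intervals, LP above HP for each probe set, with filled points past an adjusted p of 0.05. Gpx1 and Sod2 are above 0 and Gclm below 0 in both lines, while Gpx2 is at -0.01 in LP and 0.66 in HP.

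Gpx3 rose in LP by 0.67 ± 0.18 (adjusted p = 0.0415) and had 0.42 ± 0.18 in HP (adjusted p = 0.193), where the lowest SNL array (1223.2) and the highest sham array (1222.9) all but touched. The LP call held in 12 of 24 alternatives, with adjusted p of 0.0149 to 0.144, and was lost without LP SNL replicate 1 (0.55, adjusted p = 0.144), 2 (0.73, 0.0636) or 3 (0.72, 0.0806), LP sham replicate 1 (0.59, 0.128) or 3 (0.59, 0.111), HP SNL replicate 3 (0.67, 0.0596) and HP sham replicate 1 (0.67, 0.0631). Gpx4 fell in LP, at -0.35 ± 0.10 (adjusted p = 0.047), and had -0.27 ± 0.10 in HP (adjusted p = 0.129). Its LP call held in 10 of 24 alternatives, with adjusted p of 0.0112 to 0.176, and was lost without any 1 array other than LP sham replicate 3, at differences of -0.39 to -0.30. In HP it passed after quantile normalization (-0.34, adjusted p = 0.0448) and with a trended and robust variance (adjusted p = 0.0495). SNL arrays did not overlap sham arrays for Gpx3 or Gpx4 in either line, as was so for 31.2% of all genes in LP and 34.3% in HP. Of the endoplasmic reticulum members, Gpx7 rose in LP, by 0.39 ± 0.09 (adjusted p = 0.0228), and in HP, by 0.58 ± 0.09 (adjusted p = 0.00425), and Gpx8 rose in LP, by 0.54 ± 0.15 (adjusted p = 0.0397), and had 0.35 ± 0.15 in HP (adjusted p = 0.183). The LP call of Gpx7 was lost without LP SNL replicate 1 or 3 or LP sham replicate 2 or 3 (adjusted p = 0.0572 to 0.0811). That of Gpx8 was lost without any LP SNL replicate, LP sham replicate 1 or 2 or HP sham replicate 1 (adjusted p = 0.0564 to 0.132).

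The Nrf2 target enzymes did not move as a block after ligation. Gclm fell in both lines, by 0.71 ± 0.14 on the log2 scale in LP (adjusted p = 0.00909) and by 0.67 ± 0.14 in HP (adjusted p = 0.0134), with an SNL mean of 0.613 and 0.635 times the sham mean. The LP call held in all 24 alternatives. The HP call was lost without HP sham replicate 3 (-0.62, adjusted p = 0.0546), with the actin covariate (-0.64, adjusted p = 0.0749) and when only HP arrays were fitted (adjusted p = 0.0796). Gclc, its catalytic partner, had -0.10 ± 0.12 in LP (95% interval -0.37 to 0.17) and -0.10 ± 0.12 in HP (95% interval -0.37 to 0.17), with overlapping arrays in both lines. Nqo1 did not pass, at -0.33 ± 0.14 in LP (adjusted p = 0.193) and -0.35 ± 0.14 in HP (adjusted p = 0.165), although every SNL array was below every sham array in each line. Hmox1 leaned the other way, at 0.61 ± 0.24 in LP (adjusted p = 0.146) and 0.68 ± 0.24 in HP (adjusted p = 0.108). Its SNL arrays were all above its sham arrays, and their spread was wide, with an SD of 141 in LP SNL and 163 in HP SNL against 36.8 in LP sham and 24.8 in HP sham ganglia.

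Of the dismutases, Sod2 rose in both lines and Sod1 did not pass. Sod2 rose by 0.73 ± 0.15 in LP (adjusted p = 0.0116) and by 0.70 ± 0.15 in HP (adjusted p = 0.016), 1.68-fold and 1.64-fold by the means, with all SNL arrays above all sham arrays. In LP the Sod2 call was lost when only LP arrays were fitted (adjusted p = 0.0687). In HP it was lost without HP SNL replicate 2 (0.58, adjusted p = 0.0571), HP sham replicate 1 (0.71, adjusted p = 0.0531) or HP sham replicate 3 (0.70, adjusted p = 0.0545) and with the actin covariate (0.78, adjusted p = 0.0515). Sod1 had -0.22 ± 0.13 in LP (adjusted p = 0.355) and -0.14 ± 0.13 in HP (adjusted p = 0.571). In all, SNL and sham arrays did not overlap in both lines for 7 of the 10 genes, Gpx1, Gpx3, Hmox1 and Sod2 upwards and Gpx4, Nqo1 and Gclm downwards, which was also so for 19.3% of all genes.

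Ligation moved the cell markers as well. Macrophage marker sums, given above, did not overlap between SNL and sham in either line, and 8 of 12 markers rose in LP and 9 in HP, against 7.03% of all genes in LP and 6.25% in HP. Of 11 sensory neuron markers 6 fell in each line, against 6.25% of all genes in LP and 5.68% in HP. Fibroblast markers summed to 25689 to 33494 in LP SNL, 19849 to 22571 in LP sham, 29057 to 31198 in HP SNL and 20379 to 22387 in HP sham ganglia. In HP, where Gpx2 rose, red blood cell markers summed to 13784 to 15415 in SNL against 9110 to 10618 in sham ganglia, satellite glia markers to 19404 to 19760 in SNL against 15564 to 18687 in sham, and Schwann cell and myelin markers to 36943 to 38854 in SNL against 32608 to 36628 in sham. The sums of these 3 lists did not overlap between SNL and sham in HP and overlapped in LP. By limma their counts of calls were the same in LP and in HP. In each line 3 of 8 satellite glia markers rose and 1 fell, 1 of 9 Schwann cell and myelin markers rose, and 0 of 4 red blood cell markers passed. Of 14 skeletal muscle markers 4 fell in HP and 0 in LP, and of 13 epithelial markers 2 fell in HP and 0 in LP, a difference between the lines that these counts do not test. The part of these markers in the ligation differences of Gpx1, Gpx2, Gpx3, Gpx4, Gclm, Sod2 and the genes below was not tested.

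Around these enzymes, ligation changed some members of most lists. Of the 105 further genes measured, 14 rose and 9 fell in LP (21.9%) and 15 rose and 7 fell in HP (21.0%), against 13.3% of all genes called in LP and 11.9% in HP. Their median difference was 0.06 in LP and 0.02 in HP, and over all genes it was 0.02 in LP and -0.001 in HP. The count without LP sham replicate 1 or 2 was 14 or 15, and without LP SNL replicate 1 or 3 it was 15 or 14. In HP it was 13 without HP SNL replicate 3, and 14 and 13 without HP sham replicates 1 and 3. Of 24 other Nrf2 targets, 1 rose and 1 fell in LP and 3 rose in HP, where 7.03% of all genes rose and 6.25% fell in LP and 6.25% rose and 5.68% fell in HP. Srxn1, the sulfiredoxin that repairs peroxiredoxins, rose in both lines, by 0.60 ± 0.13 in LP (adjusted p = 0.0127) and 0.86 ± 0.13 in HP (adjusted p = 0.00255). Its signals were 1259, 1321 and 1110.1 in LP SNL against 696, 881 and 871 in LP sham ganglia, and 1384, 1394 and 1459 in HP SNL against 814, 843 and 689 in HP sham ganglia, with no overlap. Taldo1, a transaldolase of the pentose phosphate pathway, and the aldo-keto reductase gene Akr1b8 rose in HP, by 0.56 ± 0.13 (adjusted p = 0.0198) and 0.99 ± 0.21 (adjusted p = 0.0136), and had 0.37 ± 0.13 (adjusted p = 0.0967) and 0.29 ± 0.21 (adjusted p = 0.443) in LP. Gstm1 fell in LP, at -0.53 ± 0.14 (adjusted p = 0.0343), and had -0.25 ± 0.14 in HP (adjusted p = 0.322). The HP call of Taldo1 was lost without any HP SNL replicate or HP sham replicate 1 or 3 (adjusted p = 0.0507 to 0.0776), and that of Akr1b8 without HP SNL replicate 3 or HP sham replicate 3 (adjusted p = 0.053 and 0.0556). The LP call of Gstm1 was lost without replicate 1 or 3 of LP SNL, HP SNL or HP sham or replicate 1 or 2 of LP sham (adjusted p = 0.0501 to 0.123).

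Among 6 measured regulators of Nrf2, Mafk, a small Maf partner, rose in both lines, by 1.47 ± 0.21 in LP (adjusted p = 0.00172) and 0.85 ± 0.21 in HP (adjusted p = 0.0298). Nfe2l2 itself rose in LP, by 0.50 ± 0.11 (adjusted p = 0.0138), with signals of 838, 927 and 777 in LP SNL against 554, 607 and 639 in LP sham ganglia. In HP it had 0.18 ± 0.11 (adjusted p = 0.361), with 703, 689 and 712 in HP SNL against 615, 684 and 566 in HP sham ganglia. All SNL arrays were above all sham arrays in both lines for Nfe2l2, and 19.3% of all genes had no overlap in both lines in 1 direction. In HP the lowest SNL array (688.6) and the highest sham array (684.2) of Nfe2l2 all but touched. By its brightest probe set the related factor gene Nfe2l1 fell in both lines, at -0.49 ± 0.10 in LP (adjusted p = 0.00939) and -0.35 ± 0.10 in HP (adjusted p = 0.046). The call held in 22 of 24 alternatives in LP and 8 of 24 in HP. With the mean of its probe sets it was lost in both lines, at -0.31 in LP (adjusted p = 0.0644) and -0.16 in HP (adjusted p = 0.347). In HP the call of Nfe2l1 was also lost without any 1 array other than HP sham replicate 2 (adjusted p = 0.0536 to 0.162). The HP call of Mafk was lost without any HP SNL replicate or HP sham replicate 1 or 3 (adjusted p = 0.0577 to 0.104), and the LP call of Nfe2l2 without LP sham replicate 1 (adjusted p = 0.0508).

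The counts by list that follow stand beside 7.03% of all genes rising and 6.25% falling in LP, and 6.25% rising and 5.68% falling in HP. Of 12 thioredoxin and peroxiredoxin genes, 4 rose and 1 fell in LP and 3 rose in HP. Prdx6, a peroxiredoxin that also repairs membrane phospholipids, rose by 0.88 ± 0.14 in LP (adjusted p = 0.00313) and 0.65 ± 0.14 in HP (adjusted p = 0.0159). Prdx4, of the endoplasmic reticulum, rose by 0.36 ± 0.09 in LP (adjusted p = 0.0293) and 0.43 ± 0.09 in HP (adjusted p = 0.0153). Of 17 glutathione synthesis and recycling genes, 1 rose in LP and 2 rose and 1 fell in HP, and the glutaredoxin gene Glrx, which rose in both, had 0.52 ± 0.10 in LP (adjusted p = 0.00775) and 0.61 ± 0.10 in HP (adjusted p = 0.00431). Among 20 glutathione transferases, 1 rose and 4 fell in LP and 1 rose and 3 fell in HP. The riser in both lines was the microsomal transferase Mgst2, at 0.68 ± 0.14 in LP (adjusted p = 0.0103) and 0.75 ± 0.14 in HP (adjusted p = 0.00774), while Gstk1, Gstm7 and Mgst3 fell in both, by 0.59 to 0.62 in LP and by 0.62 to 0.85 in HP. Of these, Gstm7 in HP kept its call without any 1 array. Gstk1 lost it without 4 single arrays in each line (adjusted p up to 0.0843 in LP and 0.0771 in HP), Mgst3 without 5 in each line (up to 0.112 in LP and 0.109 in HP) and Gstm7 in LP without 8 (up to 0.113). The HP call of Prdx6 was lost without HP SNL replicate 3 or HP sham replicate 1 or 3 (adjusted p = 0.0525 to 0.0594). That of Prdx4 was lost in LP without replicate 1 or 3 of LP SNL or 1 or 2 of LP sham (adjusted p = 0.0809 to 0.101), and in HP without HP SNL replicate 3 or HP sham replicate 2 (0.0504 and 0.0548). The dismutase gene Sod3, the copper chaperone gene Ccs and the catalase gene Cat did not pass in either line.

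Of 8 oxidase genes, which produce superoxide or peroxide, 3 rose in LP and 4 in HP, against 7.03% of all genes in LP and 6.25% in HP. Xdh, xanthine dehydrogenase, rose by 1.09 ± 0.14 in LP (adjusted p = 0.00111) and 1.17 ± 0.14 in HP (adjusted p = 0.00107), with signals of 815, 886 and 826 in LP SNL against 328, 414 and 452 in LP sham ganglia, and 804, 919 and 867 in HP SNL against 427, 326 and 404 in HP sham ganglia. Rac2, a GTPase of the phagocyte oxidase, rose by 1.24 ± 0.17 in LP (adjusted p = 0.00131) and 0.94 ± 0.17 in HP (adjusted p = 0.00664). Its subunit genes Cyba and Cybb had 0.59 ± 0.11 (adjusted p = 0.00777) and 0.53 ± 0.17 (adjusted p = 0.0678) in LP, and 0.84 ± 0.11 (adjusted p = 0.00165) and 0.86 ± 0.17 (adjusted p = 0.00917) in HP. Cybb is on the macrophage marker list too. The Cyba calls were lost with the mean of its probe sets, at adjusted p up to 0.128 in LP and 0.51 in HP. Of 8 haem and iron genes, 1 rose and 1 fell in each line: Cp, the iron oxidase ceruloplasmin, at 1.21 ± 0.20 in LP (adjusted p = 0.00392) and 0.97 ± 0.20 in HP (adjusted p = 0.0131), and the ferrireductase gene Steap3, at -0.90 ± 0.14 in LP (adjusted p = 0.00236) and -0.86 ± 0.14 in HP (adjusted p = 0.00357). The HP call of Cp was lost without HP SNL replicate 2 or 3 or HP sham replicate 3 (adjusted p = 0.0507 to 0.0516). Of 14 genes of other selenoproteins and of selenocysteine synthesis, which the main glutathione peroxidases need, 2 fell in LP and 1 in HP, against 6.25% of all genes in LP and 5.68% in HP, with Selenom falling in both, at -0.43 ± 0.09 in LP (adjusted p = 0.0138) and -0.47 ± 0.09 in HP (adjusted p = 0.0117).

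With the actin ratio as a covariate, the HP calls of several genes in these lists were lost as well. The adjusted p was then 0.122 for Taldo1, 0.0857 for Akr1b8, 0.152 for Mafk, 0.209 for Nfe2l1, 0.107 for Prdx6 and 0.0907 for Prdx4. It was 0.0627 for Mgst2, 0.131 for Gstk1, 0.0671 for Mgst3, 0.0799 for Cp, 0.0635 for Cybb and 0.0799 for Selenom. In LP the same covariate ended the calls of Gpx3 (0.0697), Gpx4 (0.0859), Gpx8 (0.0779), Gstm1 (0.0665) and Prdx4 (0.0544). When only LP arrays were fitted, the LP calls were lost for Gpx3 (0.105), Gpx4 (0.176), Gpx7 (0.107), Gpx8 (0.0823), Srxn1 (0.0777), Gstm1 (0.161), Nfe2l1 (0.0536) and Nfe2l2 (0.0799). The same fit ended those of Glrx (0.06), Mgst2 (0.0596), Gstm7 (0.161), Gstk1 (0.127), Mgst3 (0.1), Prdx6 (0.0511), Prdx4 (0.115), Cyba (0.0778) and Selenom (0.1). When only HP arrays were fitted, the HP calls were lost for Taldo1 (0.0635), Nfe2l1 (0.141), Mgst3 (0.0647), Prdx4 (0.0737) and Cybb (0.0647).

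Whether ligation acted differently in the lines was read from the interaction of line and surgery. By limma 0 of the 15866 probe sets passed, 0% of all, with 747 at an unadjusted p under 0.05. The interaction of Gpx2 was -0.66 ± 0.19 (SE; 95% interval -1.10 to -0.23), with an unadjusted p of 0.00671 and an adjusted p of 0.918, on arrays that also served to choose it. A difference between the lines in the ligation response of Gpx2 is therefore not established by this test, although its LP value lay near 0 and its HP value did not. For Gpx1 the interaction was 0.04 ± 0.20 (95% interval -0.41 to 0.48), for Gclm -0.04 ± 0.20 (95% interval -0.47 to 0.40) and for Sod2 0.03 ± 0.21 (95% interval -0.45 to 0.50).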

How the data were processed

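Expression was measured on 12 Affymetrix arrays. The authors deposited linear intensities between 0 and 13930.7 for 15923 probe sets on each array, 57 of them controls. Per the submitters' processing notes the tool named is RMA, with no version. Every array has the same mean after trimming 2% at each end, a pattern of global scaling, so the authors' exact steps are not settled here. The number of arrays limits the precision.

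Group and replicate came from the titles of the samples. Because the values are linear, with 109 of 191076 under 1, they were analysed as log2(value + 1) without renormalizing. Probe sets took the platform annotation, with symbols updated through RefSeq on GRCr8: 12783 have 1 symbol, 312 several and 2771 none. A gene was counted by its brightest probe set, and of 10411 genes 1868 had more than 1. All arrays entered 1 fit of 4 group means in limma 3.58.1 (statmod 1.5.0, R 4.3.3; lmFit, contrasts.fit, eBayes; 8 residual and 1.91 prior degrees of freedom). Every one of 15866 probe sets was its own two-sided test, with Benjamini-Hochberg adjustment over all of them and a threshold of 0.05. The fit was tested on simulated data.

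The genes described, the gene and marker lists and the tests were chosen with earlier results of these data known. Named genes are every probe set of the 10 genes, in each list up to 4 genes with the smallest p in the averaged line contrast and up to 4 in the ligation contrasts, the 5 highest and 5 lowest correlations with Gpx2, and its measured neighbours. Of the list genes this rule gives, those with a call or close to one are described and the others enter the counts alone, a choice made after their values were seen. Alternatives were a replicate block, no dim probe sets, quantile normalization, median centring, pseudocounts of 16 and 32, trended and robust variance, array weights, 1 probe set or the mean per gene, the actin ratio as a covariate, the arrays compared alone, and leaving out each array. Their use on the further lists was added after seeing the data.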

Additional observations from a re-analysis of the deposited data

How the results depend on the processing

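The number of probe sets past the threshold differed between alternatives, and the cause was not tested except where fewer tests or arrays entered by construction. For LP against HP averaged over surgery the count was 106, against 23 with the replicate block, 214 without the dimmest 25% of probe sets, 272 with trended and robust variance, 70 with 1 probe set per gene and 60 with probe sets averaged by gene (both with fewer tests), 45 with the actin covariate and 25 to 86 without 1 array. For LP against HP after SNL it was 23, against 10 with the block, 38 without dim probe sets, 14 after quantile normalization, 44 with a pseudocount of 32, 68 with trended and robust variance, 37 with array weights, 11 with probe set means, 14 with the actin covariate, 7 with the arrays compared alone and 1 to 22 without 1 array. For LP against HP after sham it was 7, against 0 with the block, 15 without dim probe sets, 1 after quantile normalization, 38 with trended and robust variance, 1 with 1 probe set per gene, 0 with probe set means, 15 with the actin covariate, 0 with the arrays compared alone and 0 to 11 without 1 array. For SNL against sham the count in LP was 1922, against 834 with the LP arrays alone and 1248 to 1837 without 1 array, and in HP it was 1708, against 915 with the actin covariate, 1069 with the HP arrays alone and 981 to 1775 without 1 array. Of the line calls after SNL 15 were higher and 8 lower in LP, against 15 and 16 after median centring, and of those after sham 1 was higher and 6 lower, against 0 and 1 after quantile normalization. The interaction had 0, against 2 with the actin covariate and 0 to 3 without 1 array. Arrays of different groups that share a replicate number were compared by their deviations from their group means. These correlated with r of -0.176 to 0.113 over 18 pairs, 1 of them over 0.1, and the numbers were not used as pairs in the main fit. Low correlations with 3 arrays per group cannot exclude a shared batch, so whether the numbers pair the samples is not settled. With the replicate block Gpx1 lost its averaged line call (adjusted p = 0.114), and Gpx3 and Gpx4 lost their LP ligation calls (adjusted p = 0.089 and 0.0994). Of the list genes described, it also ended the LP calls of Gpx7 (0.0583), Gstm1 (0.0601), Gstm7 (0.0775) and Mgst3 (0.072) and the HP calls of Mgst3 (0.0761) and Nfe2l1 (0.0776). Of 1550 values of the 10 genes under alternatives, 69 lost and 4 gained the threshold, and 68 changed sign, none of them a value past the threshold. Of the 69, 18 belong to the Gpx2 line difference after sham, which is a description. Over the 105 further genes the averaged line contrast had 0 calls and 0 to 3 under the alternatives, the LP ligation contrast 23 and 6 to 29, and the HP one 22 and 8 to 24. Signal over background limits the dim probe sets: replicates of the dimmest 25% had a median SD of 0.613 on the log2 scale, against 0.135 for the brightest 25%.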
